A study of Saccharomyces cerevisiae with 54 samples.

Results

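Transcripts of the enzymes that take glucose to ethanol, acetate and glycerol were followed in budding yeast, Saccharomyces cerevisiae, across 17 strains from vineyards, sake, patients, trees and other sources. The genes were chosen by enzyme step, so that isoenzymes of a step could be set beside each other. No expression value entered that rule, but earlier results of these data were known. The list named 35 genes, of which 34 had a row among the 6264 genes of the expression table and all 34 could be tested in at least 1 strain. ALD3 was not analysed here.

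On each of 54 spotted arrays, RNA of 1 strain was hybridized against RNA of DBY8268, so every value is a log2 ratio of a strain over DBY8268 (a value of 1 is a 2-fold higher level in the strain). DBY8268 is a laboratory diploid in the S288C background, ura3-52/ura3-delta, ho/ho and GAL2/GAL2. All strains were grown in YPD, a rich medium with glucose, at 30C into log phase with no treatment. Each of 14 strains had 3 arrays, and M8, Y10 and YPS163 had 4. In the study's strain list B1, PR, M22, M8, I14 and RM11a come from vineyards, K1 and K9 from sake fermentation, YJM308 and YJM789 from patients, and YPS163 and YPS1009 from oak exudate. The others are Y12 from palm wine, YJM269 from an apple juice fermentation, SB from lychee, Y1 from mushrooms and Y10 from coconut. Each strain stands for itself, and origins were not tested as groups. Unlike DBY8268, the strains RM11a and YJM789 are haploid, as the study states. DBY8268 is the denominator of every ratio, so a peculiarity of its own expression appears in all 17 strains together.

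In glycolysis a hexose is phosphorylated, split into triose phosphates and oxidized to pyruvate. In yeast on glucose, pyruvate is then decarboxylated to acetaldehyde, which is reduced to ethanol or oxidized to acetate, and some triose phosphate is drained to glycerol. Most steps have several isoenzymes from duplicated genes, typically a highly expressed form used on glucose beside forms that glucose represses or that stress induces. Glycolytic transcripts are among the most abundant of growing yeast.

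Between 3393 and 5897 genes per array had a value, and 9 of the 34 genes had one on all 54 arrays. Arrays of 1 strain scattered with a median residual standard deviation of 0.56 for the 34 genes and 0.43 for all genes. Mating-type transcripts were high in the strains stated as haploid. The a-specific transcript STE2 had a mean of 8.07 in RM11a, and the alpha-specific transcript SAG1 had a mean of 5.56 in YJM789. They mark mating type and do not measure ploidy. Correlations between arrays of a strain ran from 0.30 to 0.88 over 60 pairs. The study states biological triplicates, but the labels do not say what separates the replicates, so p-values measure the spread between arrays. For duplicated genes such as TDH1 to TDH3, ENO1 and ENO2, or PDC1 and PDC5, hybridization of an oligonucleotide to the transcript of the partner gene was not tested.

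RM11a replicate 3 and YJM789 replicate 2 stood apart from the other arrays of their strains. HXK2, PFK2, ADH1 and GPP1 had values of 1.09, 1.88, 1.74 and 1.86 on the RM11a array and of 0.58, 1.93, 1.57 and 1.21 on the YJM789 array, where the highest values on the other 52 arrays were 0.48, 0.46, 0.87 and 0.08. Genes above all other arrays on both made up 4 of 26 members with a value on both (15.4%) and 268 of 3410 genes (7.86%). The departures of the 2 arrays from their own strains correlated with r = 0.92 over those 26 genes and 0.81 over 3343 genes, given as a description. STE2 was at 7.49 on the RM11a array and SAG1 at 5.29 on the YJM789 array, as on the sister arrays. What set these arrays apart was not tested. Values without them are given beside the members they moved most. The 2 arrays were picked after these values were seen. A smaller spread and further calls without them follow in part from that choice.

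A difference was called where limma's moderated test gave a Benjamini-Hochberg adjusted p under 0.01, adjusted over all genes of a strain. A ± beside a mean over strains is the SD of the strain means, and beside the value of 1 strain it is limma's standard error. Of 574 pairs of a member gene and a strain, 22 were higher than in DBY8268 (3.83%, against 3.86% over all genes) and 19 were lower (3.31%, against 4.88%), or 7.14% against 8.74% in either direction. These calls fell in 13 of the 34 genes (38.2%), where 46.1% of all genes were called in at least 1 strain, and the other 21 were called in none. Against the mean of the 17 strains 6 pairs were higher and 4 lower, where 1.59% and 1.07% of pairs over all genes were, and in either direction these were 1.74% of the members' pairs against 2.67%. They lay in 6 genes (17.6%, against 22.6%). An F test of variation among strains called HXK1, ADH2, ALD4, ALD5, GPD2 and GPP2, 6 of 34 (17.6%, against 17.9%). As a list, the genes were thus called about as often as all genes, or less often. The calls were spread unevenly over the steps. Of the 41 calls against DBY8268, 14 were kept when any single array was left out, and of the 10 against the mean of strains, 4 were. Without the 2 arrays that stood apart 25 pairs were higher and 25 lower than in DBY8268, against 3.94% and 5.07% of pairs over all genes.

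**Figure D1:**
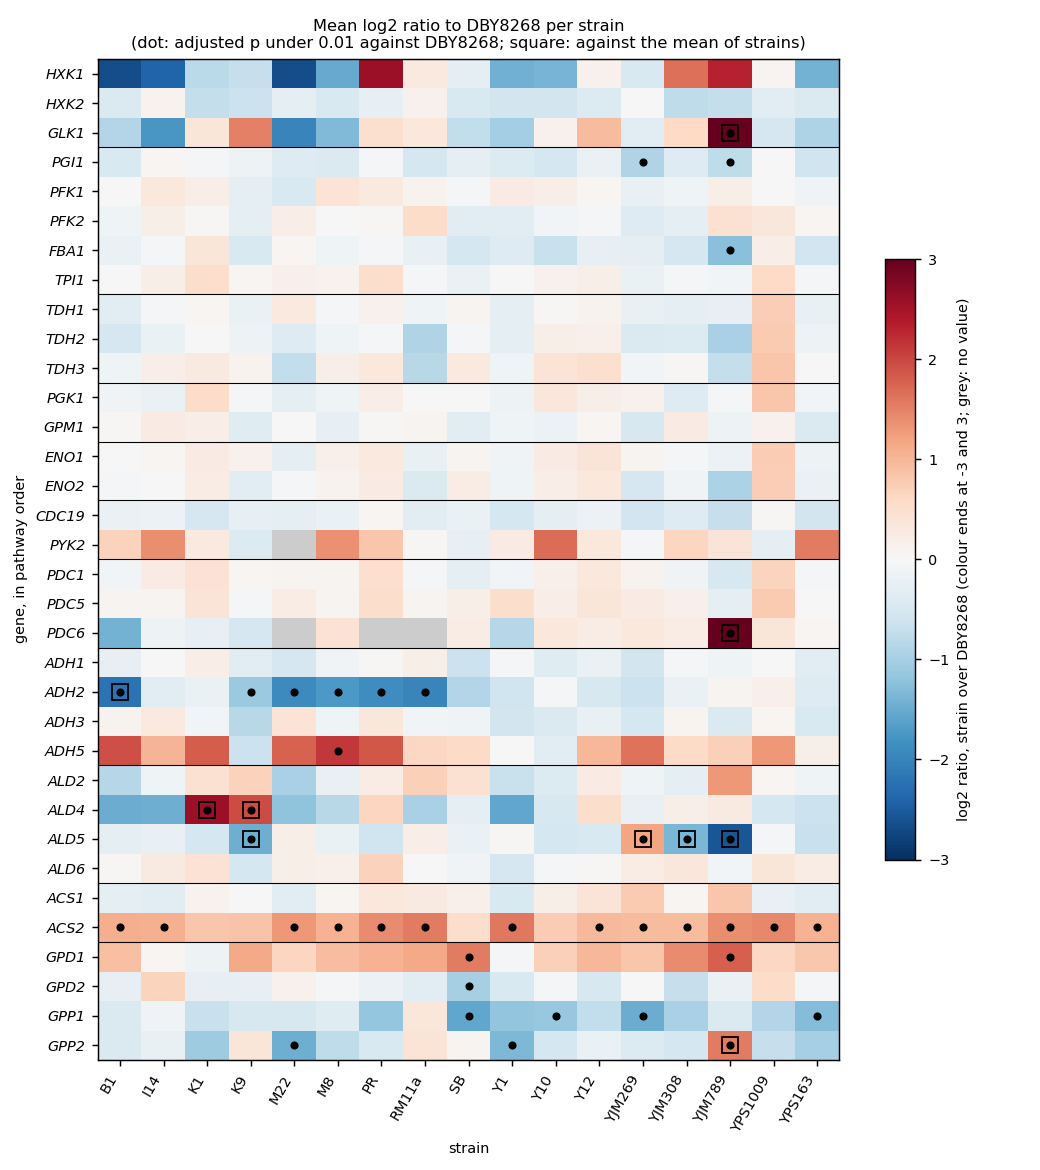
Strain means of the log2 ratio to DBY8268 for the 34 genes (rows, in pathway order, lines between enzyme steps) in 17 strains (columns), with a dot for a call against DBY8268 and a square for a call against the mean of strains, both at an adjusted p of 0.01. The rows from PGI1 to CDC19 are pale and hold 3 dots, while ACS2 is red in all 17 strains and ADH2 is blue with 6 dots.

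The first step, phosphorylation of glucose, has 3 enzymes in the list: the hexokinases HXK1 (YFR053C) and HXK2 (YGL253W) and the glucokinase GLK1 (YCL040W). HXK2 is the main enzyme on glucose and takes part in glucose repression, whereas HXK1 and GLK1 are repressed by glucose. The repressed pair varied widely between strains. Strain means of HXK1 spread from -2.67 in M22 to 2.57 in PR, a range of 5.24, and those of GLK1 from -1.98 in M22 to 3.73 in YJM789. Strain means of HXK2 lay between -0.77 in YJM308 and 0.13 in RM11a, and without the arrays that stood apart between -1.35 in YJM789 and 0.10 in I14, with RM11a at -0.35. The range of strain means had a median of 1.45 over the 34 genes and 1.33 over all genes.

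HXK1 was measured at -3.5, -1.68 and -2.83 in M22, at -3.55, -2.03 and -2.39 in B1, and at -2.55, -2.16 and -2.52 in I14. In PR it was measured at 3.28, 1.20 and 3.24, and in YJM789 at 2.79, 1.89 and 2.22. These strains had the lowest and the highest means. That the 2 sets did not overlap on any array is a description only, and the share of all genes with such a gap was not counted. Other strains were not steady from array to array: YJM308 gave 3.52, -2.20 and 3.67, and Y12 gave -1.55, -1.07 and 3.00. The residual standard deviation of HXK1 was 1.55. No strain was called against DBY8268 (smallest adjusted p = 0.019 in M22, with 2 strains higher and 4 lower at an unadjusted p under 0.05, limma). The F test among strains called it (adjusted p = 0.0077). That call was lost in 20 of 54 fits that left out 1 array, with an adjusted p of at most 0.02, without both arrays that stood apart (adjusted p = 0.013), and without the strain YJM789 (adjusted p = 0.039). It was also lost with arrays centred on the median (adjusted p = 0.011), with the replicate number as a block (adjusted p = 0.01) and without M22, RM11a and YJM789 (adjusted p = 0.1).

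GLK1 was higher in YJM789 than in DBY8268 by 3.73 ± 1.02 (2 arrays, adjusted p = 0.0045), and higher than the mean of strains (adjusted p = 0.0057). Its 2 arrays gave 1.59 and 5.88, and the other 49 arrays lay between -3.25 and 2.40. The value of 5.88 was on replicate 2. Without it the remaining value of 1.59 was not called (adjusted p = 0.43), and 5 arrays of other strains were at or above it. The F test did not call GLK1 (adjusted p = 0.066).

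HXK2 had a mean over strains of -0.39 ± 0.27 (SD, 17 strains) and was below 0 in 14 strains. It was called in none with all arrays (limma, 6 strains lower at an unadjusted p under 0.05). Without the 2 arrays that stood apart it was lower in YJM308 at -0.77 (adjusted p = 0.005) and in YJM789 at -1.35 (adjusted p = 6.8e-05), where 11.8% of all genes were lower in at least 2 strains. On the same array, GLK1 minus HXK2 ran from -1.84 in I14 to 4.15 in YJM789. Over the 17 strain means HXK1 and GLK1 correlated with r = 0.74 (Spearman 0.81) and GLK1 and HXK2 with r = -0.43 (Spearman -0.40). The points share DBY8268 and the arrays, and no p is given.

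**Figure D2:**
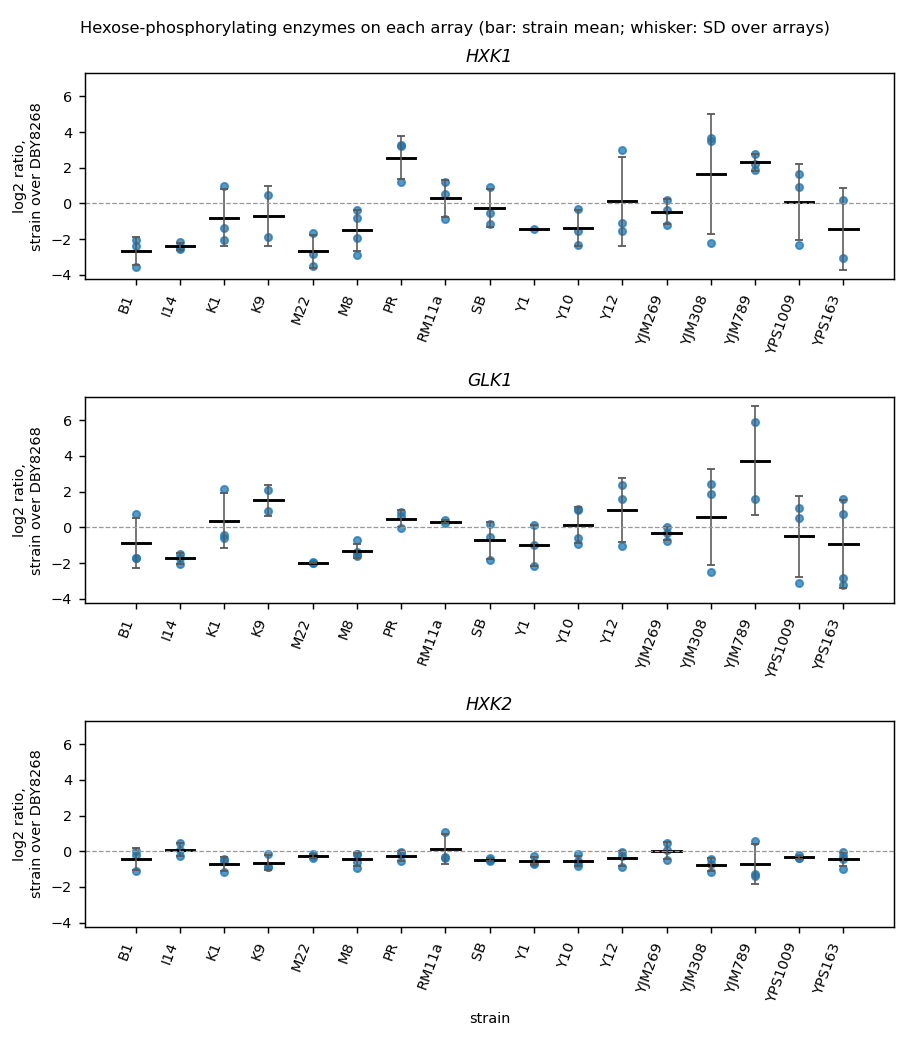
Log2 ratio of each strain over DBY8268 on each array (points), with the strain mean (bar) and the SD over its arrays (whisker), for HXK1, GLK1 and HXK2. HXK1 and GLK1 range over several log2 units between and within strains, and HXK2 stays between -1.41 and 1.09.

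HXK1 and GLK1 moved with stress-responsive transcripts. The median of 8 such genes (HSP12, CTT1, HSP26, DDR2, TFS1, PGM2, GRX1 and GAD1) correlated with HXK1 at r = 0.77 across arrays after removal of strain means, and with GLK1 at 0.61 (48 and 51 arrays, given with no p). It was taken over the genes with a value, between 2 and 8 on an array, so its genes differ between arrays. For HXK2 the value was 0.14. In YJM308 the stress median was 2.98, -0.54 and 2.24 on the 3 arrays (over 8, 5 and 8 genes), high where HXK1 was high and low where it was low. The median of the strain means of the 8 genes was highest in YJM789 at 2.78, then 1.75 in YJM308 and 1.71 in K9. The 8 genes gave 9 higher calls and 1 lower call against DBY8268 in 121 pairs, and their part in the hexokinase values was not tested.

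The 13 genes from PGI1 to CDC19 encode the enzymes from phosphoglucose isomerase to pyruvate kinase and were seldom called against DBY8268 with 3 to 4 arrays a strain. Of 221 pairs none was higher and 3 were lower, all at the top of the pathway. None was called against the mean of strains, and none varied among strains by the F test (limma, adjusted p of 0.01). At an unadjusted p under 0.05, 6 pairs were higher and 17 lower than DBY8268 (2.71% and 7.69%, against 11.7% and 13.9% over all genes), and the F test found 0 of 13 (40.4% of all genes). Means over strains ran from -0.35 for PGI1 to 0.11 for TPI1. Their residual standard deviations lay between 0.37 for PGI1 and 0.74 for PGK1, so that a strain mean of 3 arrays had a standard error of about 0.22 to 0.41. The fit had no term for dye or slide series, so the shift between arrays given below is part of this spread. Few calls thus do not show that these genes are equal among strains.

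PGI1 (YBR196C), which interconverts glucose and fructose phosphates, was lower in YJM269 (-0.50, -0.86 and -1.32 on the arrays, mean -0.89, adjusted p = 0.0029) and in YJM789 (-0.59, -1.14 and -0.53, mean -0.75, adjusted p = 0.007). All 6 values were below 0. Its mean over strains was -0.35 ± 0.27, from -0.89 to 0.06 in I14, with 15 of 17 strains below 0. The call in YJM269 was lost without replicate 2 (adjusted p = 0.024) or 3 (adjusted p = 0.1), and that in YJM789 without any single array (adjusted p from 0.016 to 0.12). With slide series as a term PGI1 in YJM789 was at -0.41 and was not called (adjusted p = 0.11).

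The 2 subunits of phosphofructokinase, the main control point of glycolysis, were called in no strain. PFK1 (YGR240C) had a mean of 0.05, from -0.46 in M22 to 0.41 in M8, and PFK2 (YMR205C) a mean close to 0, from -0.38 in YJM269 to 0.54 in RM11a. At an unadjusted p under 0.05 neither had a strain in either direction. PFK1 minus PFK2 averaged 0.09 ± 0.30 and was above 0 in 13 of 17 strains, but it was above 0 on 25 of 53 arrays, below on 25 and equal on 3. PFK1 averaged -0.17 with the strain in Oyster 650 and 0.50 in Oyster 550. The top of the range for PFK2 rests on the RM11a array that stood apart.

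FBA1 (YKL060C), the aldolase that splits the hexose bisphosphate, was lower in YJM789 (-1.02, -1.16 and -1.6, mean -1.26 ± 0.30, adjusted p = 0.0013). The call was lost without replicate 3 (adjusted p = 0.031). Its highest strain was K1 at 0.36, and the mean over strains was -0.29 with 14 strains below 0. TPI1 (YDR050C), which interconverts the triose phosphates, averaged 0.11 and ran from -0.20 in SB to 0.59 in YPS1009 with no call.

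Glyceraldehyde-3-phosphate dehydrogenase has 3 genes, of which TDH3 (YGR192C) gives most of the enzyme. TDH1 (YJL052W) averaged -0.03 (B1 -0.32 to YPS1009 0.75), TDH2 (YJR009C) -0.21 (YJM789 -0.97 to YPS1009 0.78) and TDH3 0.03 (RM11a -0.83 to YPS1009 0.84). No strain was called for any of them, and the smallest adjusted p was 0.011 for TDH2 in YJM789 (-1.01, -1.05 and -0.84). TDH2 and TDH3 moved closely together: TDH2 minus TDH3 averaged -0.25 ± 0.19 and was below 0 in 16 of 17 strains and on 43 of 52 arrays. M22 was the exception at 0.36, with TDH3 at -0.86, -0.80 and -0.57 and TDH2 at -0.40, -0.37 and -0.37. TDH1 minus TDH3 was also highest in M22, at 1.04, then 0.70 in RM11a and 0.46 in YJM789. TDH1 minus TDH2 averaged 0.19 ± 0.27 and was highest in the same 3 strains, at 0.79 in RM11a, 0.71 in YJM789 and 0.67 in M22. All arrays of these 3 strains were of slide series 6. Means over strains on series 5 and 6 were 0.155 and -0.37 for TDH1, 0.06 and -0.55 for TDH2, and 0.47 and -0.42 for TDH3. The part of the series in these differences was not tested. Over strains TDH2 and TDH3 correlated with r = 0.90, the highest of the 24 isoenzyme pairs compared.

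In lower glycolysis PGK1 (YCR012W), the phosphoglycerate kinase, averaged 0.05 (YJM308 -0.39 to YPS1009 0.84, but without the arrays that stood apart RM11a and YJM789 were lower, at -0.465 and -0.46) and GPM1 (YKL152C), the phosphoglycerate mutase, averaged -0.07 (YJM269 -0.48 to YJM308 0.26). The enolases ENO1 (YGR254W) and ENO2 (YHR174W) averaged 0.09 (M22 -0.27 to YPS1009 0.76) and -0.04 (YJM789 -0.95 to YPS1009 0.73). ENO1 minus ENO2 averaged 0.11 ± 0.24, above 0 in 15 strains, and was highest in YJM789 at 0.78. CDC19 (YAL038W), the pyruvate kinase used on glucose, averaged -0.30, from -0.68 in YJM789 to 0.07 in PR, with 15 strains below 0. None of these 5 genes was called in a strain. GPM1 lies on chromosome XI, whose genes in YJM308 had a median offset of 0.55 above the mean of strains. PGK1 lies on chromosome III, whose median offset was -0.33 in YJM308 and 0.47 in K1, where PGK1 was at 0.56.

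PYK2 (YOR347C), the pyruvate kinase that glucose represses, averaged 0.53 and spread from -0.41 in K9 to 1.67 in Y10, over 16 strains and 44 arrays. It was above 0 in 12 strains and called in none (limma, 3 strains higher at an unadjusted p under 0.05). Its residual standard deviation of 1.34 was far above the 0.54 of CDC19. PYK2 minus CDC19 averaged 0.87 ± 0.73 and ran from -0.34 in YPS1009 to 2.11 in YPS163. PYK2 was 1.11 lower on arrays with the strain in Oyster 650 than on those with Oyster 550, over 14 strains.

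Most of the glycolytic genes carried a shift that went with the arrays. The median of the 13 genes from PGI1 to CDC19 was higher with the strain in Oyster 650 than in Oyster 550 by 0.52 ± 0.41, in 15 of 17 strains. In 14 strains the dye changed together with the slide series, and the difference there was 0.63 ± 0.34. In M22, RM11a and YJM789, whose arrays were all of series 6, it was -0.01 ± 0.15. On series 6 the median was -0.29 over 6 arrays in Oyster 650 (range -0.43 to -0.21) and -0.44 over 18 arrays in Oyster 550 (range -0.94 to 0.03), against 0.20 over 25 arrays of series 5 in Oyster 650 (range -0.65 to 1.27). A dye difference above 0.5 was found for 11 of 33 members and for 2.63% of 4712 genes, while the median of all genes was higher with Oyster 650 in 8 of 17 strains. In the other direction, 6 members lay below the 5th percentile of all genes, -0.36. PFK1 went against its neighbours, with a dye difference of -0.69 (higher with Oyster 650 in 0 of 16 strains) and means over strains of -0.18 on series 5 and 0.45 on series 6, and PFK2 had a dye difference of 0.03. In the 14 strains dye and slide series cannot be told apart, and M22, RM11a and YJM789 have no array outside series 6.

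**Figure D3:**
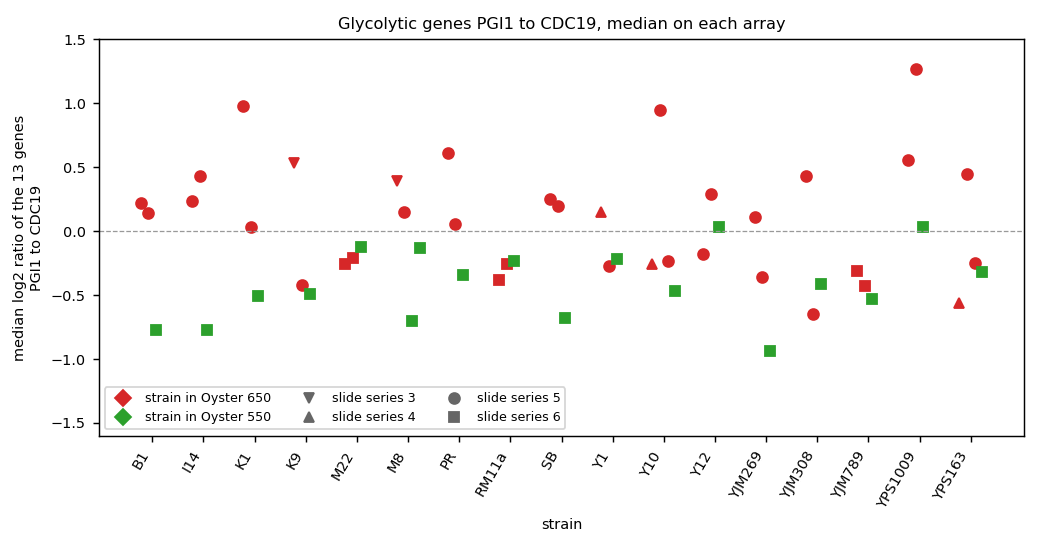
Median log2 ratio of the 13 genes from PGI1 to CDC19 on each array, by strain (x axis), with the dye of the strain as colour and the slide series as marker shape. Of the 25 arrays of series 5, 18 lie above 0, against 2 of the 24 arrays of series 6, and the 3 YPS1009 arrays lie between 0.03 and 1.27.

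YPS1009 had the highest strain mean for 7 of these 13 genes and for 10 of the 34. The median of the 13 was 0.56, 1.27 and 0.03 on its arrays, with a strain median of 0.59, and all 13 strain means were above 0. With dye as a term the median was 0.45, with 11 of 13 above 0. Within series 5 it had the highest strain mean, 0.92, of 14 strains, and within series 6 its value of 0.03 was tied for the highest of 17. No member was called against the mean of strains in YPS1009, where 2.02% of all genes were. RM11a, YJM789 and M22, on series 6 alone, had medians of -0.22, -0.25 and -0.27, to be read beside the -0.36 of all series 6 arrays.

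Pyruvate decarboxylase, the first step of fermentation proper, has 3 genes: PDC1 (YLR044C), which gives most of the activity, PDC5 (YLR134W), and the weakly expressed PDC6 (YGR087C). PDC1 averaged 0.09 (YJM789 -0.48 to YPS1009 0.68) and PDC5 0.21 (YJM789 -0.28 to YPS1009 0.78), with no call. They lie on chromosome XII, whose genes in YPS1009 had a median offset of 0.48 above the mean of strains. PDC5 minus PDC1 averaged 0.10 ± 0.15 and was above 0 in 13 strains.

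PDC6 stood out in YJM789. It had a value on 26 arrays of 14 strains, at 4.69 and 2.53 in YJM789 and between -1.42 and 1.43 on the other 24 arrays. That YJM789 did not overlap the rest is a description only, and the share of all genes with such a gap was not counted. The F test among strains did not call PDC6 (adjusted p = 0.047). The strain mean of 3.61 ± 0.58 (12.2-fold) was called against DBY8268 (adjusted p = 2e-04) and against the mean of strains (difference 3.42, adjusted p = 0.00051). Background in YJM789 was 19.6% of genes called against DBY8268 and 11.9% against the mean of strains. Without replicate 1 the single value left, 2.53, had adjusted p values of 0.02 and 0.032. The lowest strain was B1 at -1.42, a single array. PDC6 followed the stress median within strains with r = 0.72.

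Of the alcohol dehydrogenases, ADH2 was lower than in DBY8268 in several strains and ADH5 higher in M8, while ADH1 and ADH3 were called in none. ADH1 (YOL086C), which reduces acetaldehyde to ethanol, averaged -0.18 (SB -0.64 to K1 0.20) and was called in no strain (limma, 0 at an unadjusted p under 0.05). Without the arrays that stood apart its mean was -0.28, with RM11a at -0.615 and YJM789 lowest at -0.965 (adjusted p = 0.06), again with no call. ADH2 (YMR303C), the glucose-repressed enzyme that oxidizes ethanol back to acetaldehyde, averaged -0.84 ± 0.80 and was lower in 6 strains, where 4.19% of all genes were lower in at least 6. Strain means ran from -2.21 in B1 to 0.16 in YPS1009, and the F test among strains called it (adjusted p = 3.1e-05, at most 0.00011 without any single array).

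ADH2 was at -2.25, -2.27 and -2.12 in B1, at -2.06, -1.59 and -2.07 in M22, and at -1.33, -2.14 and -2.13 in PR. RM11a gave -2.0 and -1.95, M8 gave -2.01 and -1.44, and K9 gave -0.81, -1.40 and -1.14. On every one of these arrays ADH2 was below 0, and its strain means were 0.216- to 0.461-fold of the level in DBY8268. I14, also a vineyard strain, was not called and gave -0.20, -0.28 and -0.54. YJM789 (-0.38, -0.14 and 0.80) and YPS1009 (0.42, 0.01 and 0.06) lay at the top and did not overlap with B1, M22, PR, RM11a or M8. These were the strains with the highest and the lowest means, so the gap is a description only.

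The calls of ADH2 in B1 (-2.21, 0.216-fold, adjusted p = 1.1e-06), M22 (-1.91, adjusted p = 6.2e-06) and PR (-1.87, adjusted p = 1.3e-05) were kept without any single array. That in RM11a (-1.98, adjusted p = 0.00011) was lost without replicate 1 (adjusted p = 0.01), and that in M8 (-1.73, adjusted p = 0.00078) without replicate 3 (adjusted p = 0.077). That in K9 (-1.12, adjusted p = 0.0087) was lost in 20 of 54 such fits, among them all 3 that left out a K9 array (adjusted p from 0.021 to 0.082). Against the mean of strains ADH2 was called in B1 alone (difference -1.37, adjusted p = 0.0067), and not without any single B1 array (adjusted p from 0.055 to 0.091). K1, the other sake strain, gave 0.52, -0.72 and -0.37.

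ADH2 minus ADH1 on the same array averaged -0.63 ± 0.73 and was below 0 in 14 of 17 strains, with B1 lowest at -1.97 and Y10 highest at 0.31. ADH2 was -0.66 over strains on series 5 and -0.93 on series 6, and its dye difference was 0.08, so its lower level was seen in both series. Whether the ADH2 oligonucleotide also captured ADH1 transcript was not tested.

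ADH3 (YMR083W), the mitochondrial enzyme, averaged -0.15, from -0.84 in K9 to 0.41 in M22, with no call. ADH5 (YBR145W) averaged 0.95 ± 0.84 and was above 0 in 14 strains, from -0.64 in K9 to 2.12 in M8. M8 was its only call, at 0.65, 1.98, 2.83 and 3.03 (adjusted p = 0.0057), and it was lost without replicate 2, 3 or 4 (adjusted p from 0.022 to 0.062). Arrays of a strain could lie far apart, as in YJM308 at 2.49, -2.10 and 1.43. At an unadjusted p under 0.05, 7 strains were higher. ADH5 minus ADH1 averaged 1.11 ± 0.83 and was above 0 in 16 of 17 strains.

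Acetaldehyde that is not reduced is oxidized to acetate by the aldehyde dehydrogenases: ALD6 (YPL061W) in the cytosol, ALD4 (YOR374W) and ALD5 (YER073W) in mitochondria, and the stress-responsive cytosolic ALD2 (YMR170C). ALD6, the main form on glucose, averaged 0.10 (K9 -0.52 to PR 0.68) with no call, and ALD2 averaged 0.02 (M22 -0.97 to YJM789 1.30, a single array) with no call. Both mitochondrial forms varied among strains by the F test. ALD4 spread from -1.56 in Y1 to 2.58 in K1 (F test, adjusted p = 0.00014), and ALD5 from -2.57 in YJM789 to 1.19 in YJM269 (adjusted p = 7.6e-07, the smallest of the 34 genes). Neither was lost without any single array, with adjusted p of at most 0.00074 and 8.6e-06.

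ALD4, the major mitochondrial form, was high in both sake strains, where 1.56% (K1) and 1.83% (K9) of all genes were called against the mean of strains. It was at 2.64, 2.47 and 2.62 in K1 and at 2.48, 1.48 and 1.93 in K9, while the highest array outside these strains was 1.56 in Y12. Every K1 array stood above the arrays of all strains but K9, and the lowest K9 array, 1.48, lay below that Y12 array. K1 (2.58, 5.97-fold) was called against DBY8268 (adjusted p = 0.00025) and the mean of strains (difference 2.78, adjusted p = 0.00032), also without any single array (adjusted p of at most 0.0055 and 0.0095). K9 (1.96, 3.90-fold, adjusted p = 0.006 and 0.0073) was called by neither without any one of its arrays (adjusted p from 0.016 to 0.1). B1 (-1.84, -1.26 and -1.37), I14 (-1.62, -1.53 and -1.25) and Y1 (-2.01, -1.74 and -0.93) were lowest, with no call.

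ALD4 was 0.75 lower on Oyster 650 arrays than on Oyster 550 arrays, and its mean over strains was -0.38 on series 5 and 0.30 on series 6. In K1 the series 6 array alone gave 2.62 and the series 5 arrays 2.56. ALD4 followed the stress median within strains with r = 0.72. In K1 the stress median was -0.30, 1.88 and 0.06 on the arrays, on which ALD4 lay between 2.47 and 2.64. In K9 the stress median was 3.19, 2.21 and 1.34. The median of the strain means of the 8 stress genes was 0.75 in K1 and 1.71 in K9.

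ALD5 had the opposite direction to ALD4 in K9. It was lower there (-1.88, -1.23 and -1.30, mean -1.47) and in YJM308 (-1.67, -0.96 and -1.46, mean -1.36), and at -2.57 on the single array of YJM789 with a value. It was higher in YJM269, at 1.28, 1.03 and 1.26, above the highest array of any other strain, 0.92 in Y1. YJM269 (1.19 ± 0.22, 2.28-fold) was called against DBY8268 (adjusted p = 0.00011) and the mean of strains (difference 1.63, adjusted p = 1.8e-06), also without any single array.

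The lower ALD5 calls against DBY8268 (adjusted p = 6.3e-06 in K9, 2e-05 in YJM308 and 3.1e-06 in YJM789) were kept without any single array of K9 or YJM308. The YJM789 value borrows its error from the other strains, since it rests on replicate 1 alone. Against the mean of strains K9 (adjusted p = 0.0036) was lost without replicate 1 or 3 (adjusted p = 0.094 and 0.013) and YJM308 (adjusted p = 0.0061) without the same numbers (adjusted p = 0.12 and 0.071). ALD4 minus ALD5 was highest in K9, at 3.43, and lowest in Y1, at -1.59, and over strains ALD4 and ALD5 correlated with r = -0.43 (Spearman -0.59).

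**Figure D4:**
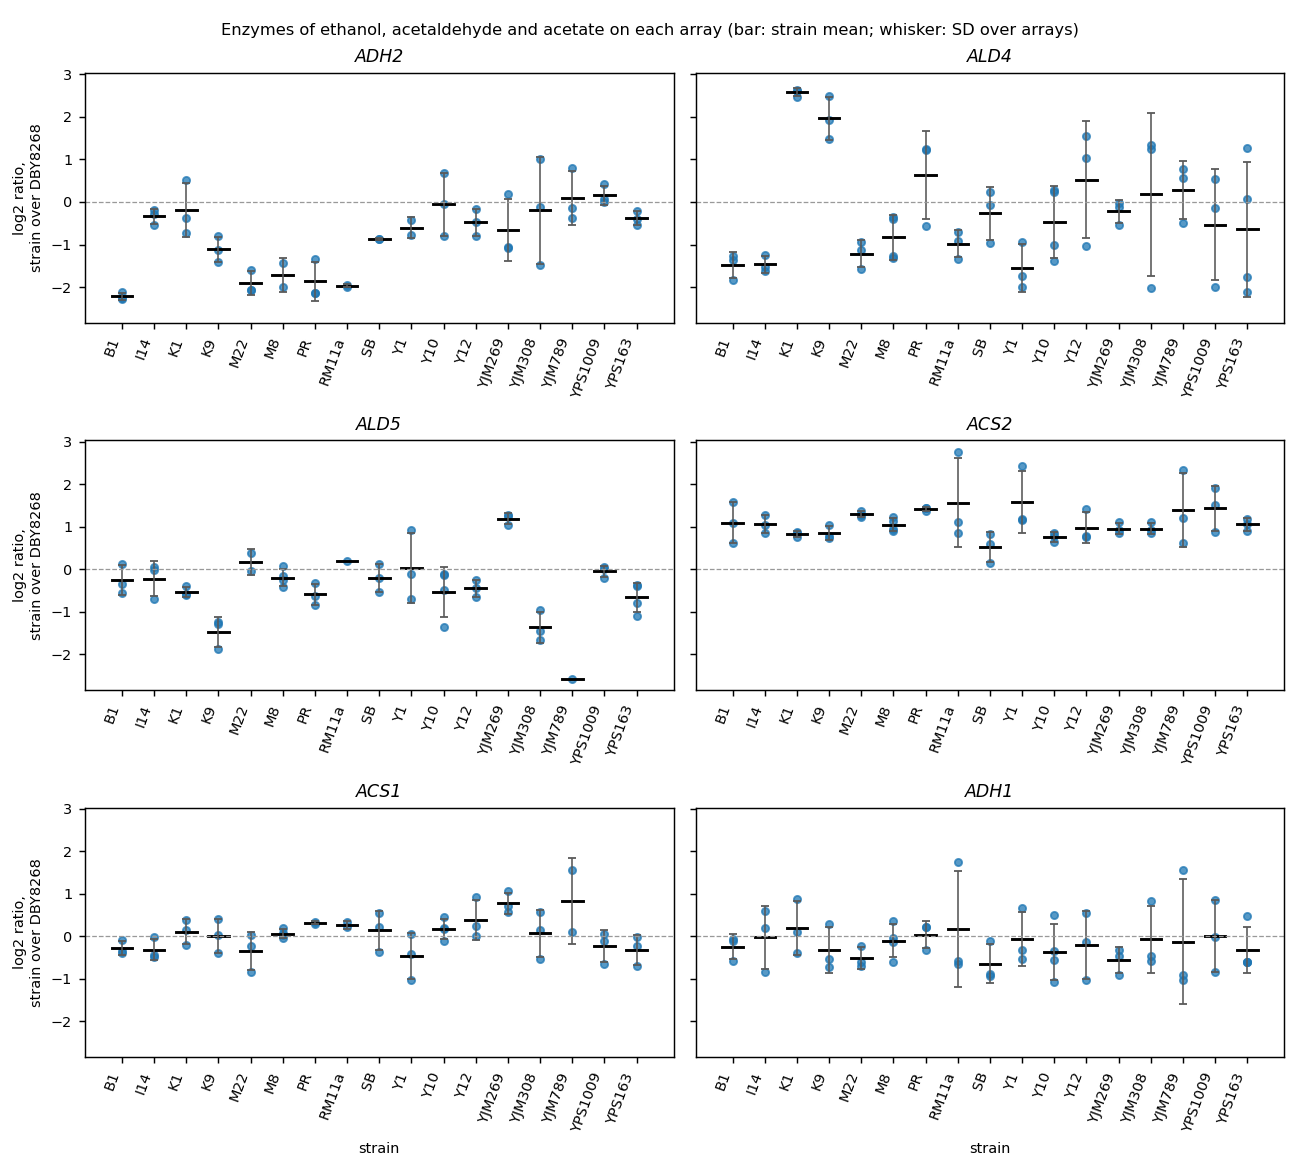
Log2 ratio over DBY8268 on each array (points), with the strain mean (bar) and the SD over its arrays (whisker), for ADH2, ALD4, ALD5, ACS2, ACS1 and ADH1 in 17 strains. ACS2 is above 0 on all 52 arrays with a value, ALD4 is highest in K1 and K9, and ALD5 is highest in YJM269.

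Acetyl-CoA synthetase, which activates acetate, had the member that was called in the most strains. ACS2 (YLR153C), the isoenzyme needed on glucose, was above 0 in all 17 strains and on all 52 arrays with a value, from 0.14 to 2.76. Its mean was 1.10 ± 0.30, and it was higher than in DBY8268 in 13 strains, where 0.497% of all genes were higher in at least 13. All 17 strains had an unadjusted p under 0.05. The F test did not call ACS2 (adjusted p = 0.29), and no strain was called against the mean of strains.

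ACS2 was lowest in SB, at 0.14, 0.82 and 0.60 (mean 0.52, 1.43-fold, adjusted p = 0.21), and highest in Y1, at 2.43, 1.16 and 1.18 (mean 1.59, 3.01-fold, adjusted p = 1.6e-05). SB, K1, K9 and Y10 were not called, with means of 0.52 to 0.85. The 2 arrays that stood apart gave 2.76 in RM11a and 2.33 in YJM789. Without them the mean was 1.04, the residual standard deviation fell from 0.44 to 0.31, and ACS2 was higher in 16 strains, all but SB (0.348% of all genes in at least 16).

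With all arrays, 6 calls of ACS2 were kept without any single array: those in M22, M8, PR, RM11a, Y1 and YPS1009. In I14, Y12, YJM269 and YJM308 the call was lost without any one array of the strain, in B1 without replicate 1 or 2, in YPS163 without replicate 2, 3 or 4, and in YJM789 without replicate 2, with adjusted p from 0.011 to 0.16. ACS2 lies on chromosome XII. After subtraction of the offset of that chromosome, the value of ACS2 in YPS1009 against DBY8268 was 0.92 (adjusted p = 0.0072) in place of 1.43. Over strains ACS2 was 0.99 on series 5 and 1.09 on series 6, and the dye difference was -0.07.

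ACS1 (YAL054C), the glucose-repressed isoenzyme, averaged 0.07, from -0.46 in Y1 to 0.83 in YJM789, and was called in none (limma, 2 strains higher and 1 lower at an unadjusted p under 0.05). The YJM789 value rests on 0.11 and on 1.55, the latter on the array that stood apart. ACS2 minus ACS1 on the same array averaged 1.00 ± 0.51 and was above 0 in 17 of 17 strains and on 47 of 49 arrays. It was lowest in YJM269, at 0.17, where ACS1 was at 0.57, 1.06 and 0.71, and highest in Y1, at 2.05. The mean over strains was 1.10 for ACS2 and 0.07 for ACS1. As every ratio shares DBY8268, a lower ACS2 in DBY8268 cannot be told apart from a higher ACS2 in the strains.

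In the glycerol branch dihydroxyacetone phosphate is reduced by glycerol-3-phosphate dehydrogenase and the product is dephosphorylated by glycerol-3-phosphatase. GPD1 (YDL022W) is the dehydrogenase induced by osmotic stress and GPD2 (YOL059W) the one induced without oxygen. Of the phosphatases GPP1 (YIL053W) and GPP2 (YER062C), the latter is induced by osmotic stress. At the first step GPD1 was mostly above 0 and GPD2 mostly below it. GPD1 averaged 0.85 ± 0.53 and was above 0 in 15 strains, from -0.14 in K1 to 1.78 in YJM789. GPD2 averaged -0.17 ± 0.40 and was below 0 in 13, from -1.0 in SB to 0.66 in I14.

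GPD1 was called in SB (1.37, 1.34 and 1.97, mean 1.56, adjusted p = 0.0067) and in YJM789 (1.77, 1.29 and 2.29, 3.44-fold, adjusted p = 0.00077). All 6 values were above 1. At an unadjusted p under 0.05, 10 strains were higher and none lower. The call in SB was lost without any single SB array (adjusted p from 0.030 to 0.084), and that in YJM789 without replicate 3 (adjusted p = 0.024). With slide series as a term neither was called (adjusted p = 0.049 and 0.022). GPD1 had the highest within-strain correlation with the stress median, r = 0.79.

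GPD2 was lower in SB (-1.63, -0.71 and -0.66, mean -1.0, adjusted p = 0.0014), a call lost without replicate 1 (-0.69, adjusted p = 0.14). The F test called GPD2 (adjusted p = 0.0087). I14 (0.55, 0.94 and 0.48) and YPS1009 (0.61, 0.28 and 0.74), the highest strains, lay above SB, the lowest, on every array. As they were picked by their means, the gap is a description only, and the share of all genes with such a gap was not counted. The F test call was lost in 37 of 54 fits that left out 1 array (adjusted p of at most 0.027), and with slide series as a term (adjusted p = 0.012). On the same array GPD1 minus GPD2 averaged 1.03 ± 0.81 and was above 0 in 16 of 17 strains. It was highest in SB, at 2.56, and below 0 only in I14, at -0.59. Over strains GPD1 and GPD2 correlated with r = -0.48 (Spearman -0.50).

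At the second step GPP1 was below 0 in 16 of 17 strains, with a mean of -0.77 ± 0.51. It was lower in SB (-2.3, -1.35 and -1.0), Y10 (-1.59, -0.94, -1.37 and -0.66), YJM269 (-1.42, -1.39 and -1.68) and YPS163 (-1.84, -0.80, -1.57 and -1.0). Every array of these strains was below 0. Adjusted p values were 0.00076, 0.0052, 0.00095 and 0.00098. The calls were lost without SB replicate 1 (adjusted p = 0.069), without Y10 replicate 1, 2 or 3 (0.016 to 0.05), without YJM269 replicate 1 or 3 (0.01 and 0.02) and without YPS163 replicate 1 or 3 (0.019 and 0.011).

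RM11a was the strain above 0, at -0.46, -0.37 and 1.86, and YJM789 gave -1.29, 1.21 and -1.22. Both high values were on the arrays that stood apart. Without them GPP1 was below 0 in all 17 strains, its mean was -0.86, its residual standard deviation fell from 0.59 to 0.39, and it was lower in 9 strains (2.92% of all genes in at least 9): SB, Y10, YJM269, YPS163, PR, Y1, YJM308, YJM789 and YPS1009. As the arrays were picked with such GPP1 values in view, the smaller spread and the added calls follow in part from that choice. PR (-1.04, -1.23 and -1.21) and YJM308 (-0.93, -0.98 and -0.99) were among the steadiest. Without YJM789 replicate 2 alone the count was 7. GPP1 was -0.90 over strains on series 5 and -0.70 on series 6. It lies on chromosome IX, whose genes in K9 had a median offset of 0.47 above the mean of strains. GPP1 was at -0.48 in K9.

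GPP2 ran from -1.46 in M22 to 1.55 in YJM789 with a mean of -0.39 ± 0.73 (F test, adjusted p = 0.00024, 0.036 without YJM789, and 0.27 without M22, RM11a and YJM789). In YJM789 it was at 1.22, 1.52 and 1.92, and the highest of the other 50 arrays was 1.34, the first K9 array. YJM789 was called against the mean of strains (difference 1.95, adjusted p = 2.1e-05), also without any single array, and against DBY8268 (2.93-fold, adjusted p = 0.00031), the latter not without replicate 3 (adjusted p = 0.012). No member was called in M22 against the mean of strains, where 6.71% of all genes were. Against DBY8268, GPP2 was lower in M22 (-1.94, -1.19 and -1.25, adjusted p = 0.00074) and Y1 (-1.6, -1.18 and -1.26, adjusted p = 0.0043). These were lost without M22 replicate 1 (adjusted p = 0.031) and without any single Y1 array (0.015 to 0.082). YJM308 gave 0.22, -2.08 and 0.25, and without its replicate 2 GPP2 was called in 5 strains in place of 3.

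GPP2 minus GPP1 averaged 0.35 ± 0.71, from -0.99 in M22 to 1.99 in YJM789, and was above 0 in 11 strains. GPP2 followed the stress median within strains with r = 0.63 and GPP1 with r = -0.05.

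**Figure D5:**
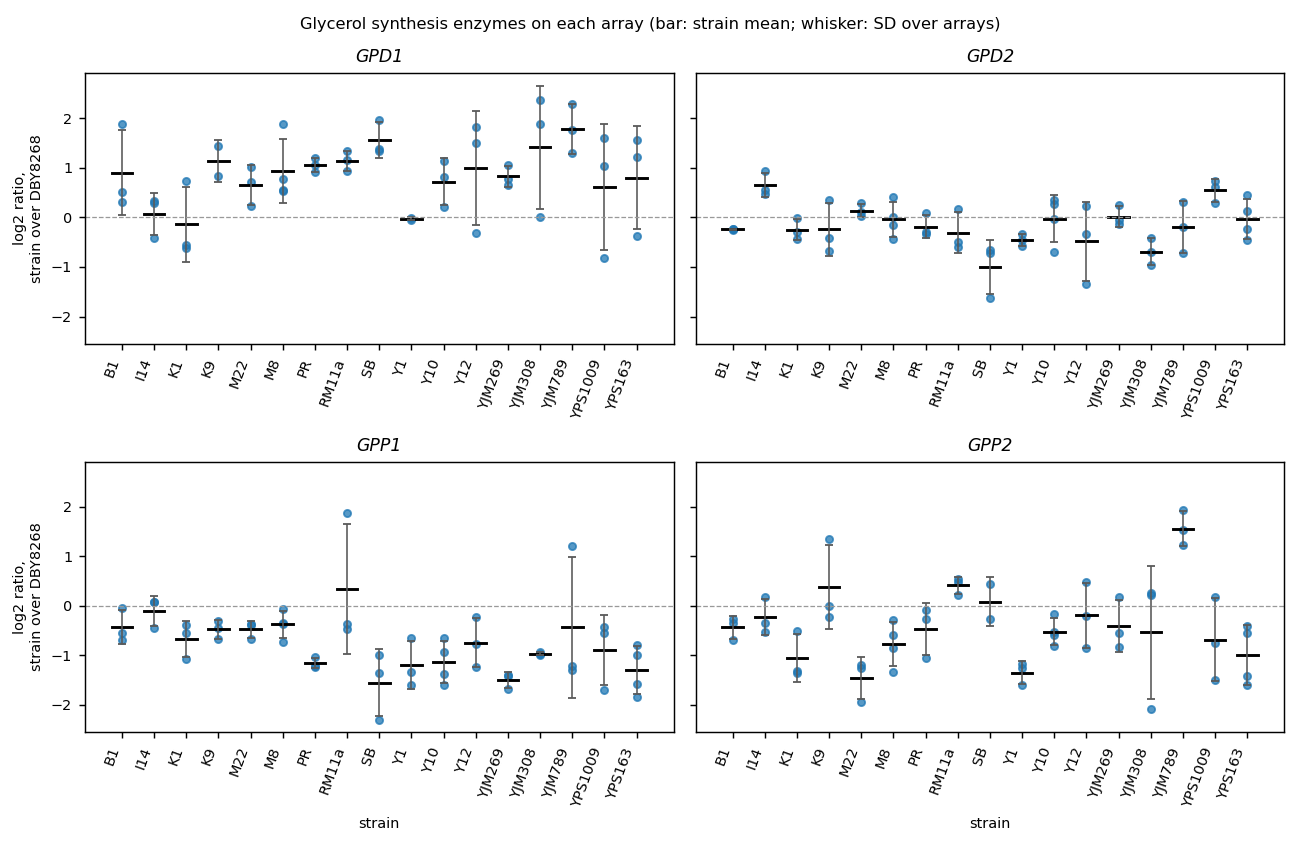
Log2 ratio over DBY8268 on each array (points), with the strain mean (bar) and the SD over its arrays (whisker), for GPD1, GPD2, GPP1 and GPP2 in 17 strains. GPD1 lies mostly above 0 and GPP1 mostly below it, with 1.86 in RM11a and 1.21 in YJM789 as the only GPP1 arrays above 0.08, and GPP2 is highest in YJM789.

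Across steps, YJM789 differed from DBY8268 most often, with 5 members higher (GLK1, PDC6, ACS2, GPD1 and GPP2) and 3 lower (PGI1, FBA1 and ALD5). That is 8 of its 34 genes, where 19.6% of all genes tested in YJM789 were called. It held the highest strain mean of 6 members and the lowest of 7. The other strains had 1 to 4 calls each. SB had GPD1 higher with GPD2 and GPP1 lower, and K9 had ALD4 higher with ADH2 and ALD5 lower.

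Genes around the pathway were counted from 4 further lists, beside 3.86% of pairs higher and 4.88% lower over all genes. Of 8 regulators of glycolysis, among them the activators GCR1, GCR2, TYE7 and RAP1, 1 of 134 pairs was higher and 7 were lower, and the median of their means was -0.19 against -0.03 over all genes. Of 8 genes of gluconeogenesis, the glyoxylate cycle and their control, 5 of 106 pairs were higher and 5 lower, the lower ones all of ADR1, an activator of ADH2, in I14, M8, YJM269, YJM308 and YPS1009. Of 9 further isoenzymes 4 of 141 pairs were higher and 2 lower. Of 6 testable genes of glycerol uptake and use and of osmotic signalling 4 of 87 were higher and 2 lower, the higher ones all of HOG1, the osmotic stress kinase, in I14, RM11a, YJM789 and YPS1009. ADR1 and HOG1 are named here after their values were seen. ADR1 was below 0 in all 13 strains with a value, with a mean over strains of -1.91. HOG1 was above 0 in 17 strains, with a mean of 0.40. It lies on chromosome XII, whose genes in YPS1009 had a median offset of 0.48 above the mean of strains. ADR1 and ADH2 were both called lower in M8 and in no other strain together, and a link between them was not tested.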

How the data were processed

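The values analysed are log2 ratios of strain over DBY8268, as deposited: per the study's methods and the labels, the authors hybridized Oyster-labelled samples to 70-mer oligonucleotide arrays, kept unflagged spots with R2 above 0.1, mean-centred regions of each array and turned dye-reversed arrays. Their values were used unchanged. Ratios carry no counts, so precision rests on the number of arrays (54, or 3 to 4 a strain). The 34 genes, the further lists and the rule for naming genes were chosen with earlier results of these data known.

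One model with a coefficient per strain was fitted to all 6264 genes with limma 3.58.1 in R 4.3.3 (lmFit and eBayes, missing values left out). Each strain was tested against DBY8268 and against the mean of strains, and strains among themselves by a moderated F test. P-values were adjusted by Benjamini-Hochberg over all genes, within a strain for the first 2 tests. The fit was tested on simulated data. Symbols came from the RefSeq annotation R64, which matched 5824 genes. Members were described in full where called, and other genes were to be named if called in 9 or more strains against DBY8268 or 3 or more against the mean, which none of the 40 listed genes met. Isoenzymes were compared as differences on the same array and given without a test.

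Alternatives were other centring and scaling, fewer missing values, own-array errors, the replicate number, dye, slide or slide series in the fit, a chromosome offset, other adjustments, and leaving out arrays or strains. Arrays from slide series 3 to 6 numbered 2, 3, 25 and 24. No sequences were used.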

Additional observations from a re-analysis of the deposited data

Results flagged for a closer look

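In groups of 4 arrays, 4 of 75 checks of a member found 1 array far from the others, where chance flags about 1 in 20 groups. In M8 the lowest array gave -0.41 for PFK2, with the next at 0.09, and -0.91 for CDC19, with the next at -0.06. In YPS163 the highest array gave 0.60 for PDC1, with the next at -0.18, and 0.48 for ADH1, with the next at -0.59.

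For 6 members the strains differed by the F test, and the size given here is the highest minus the lowest strain mean on the log2 scale. It was 5.24 for HXK1, 4.14 for ALD4, 3.76 for ALD5, 3.01 for GPP2, 2.38 for ADH2 and 1.66 for GPD2.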

How the results depend on the processing

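Leaving out each array in turn gave 20 to 24 higher and 17 to 22 lower calls against DBY8268 (22 and 19 with all arrays), 5 to 9 higher and 3 to 6 lower against the mean of strains (6 and 4), and 4 to 7 genes by the F test (6). In the same order, moved counts were 2, 7, 2, 0 and 2 with only the genes that had a value on every array. The 0 stands beside 10 of 153 pairs at an unadjusted p under 0.05 by limma, over 9 members. With errors from each strain's own arrays, 7 were higher than DBY8268, and 2 higher and 1 lower than the mean. Series 5 alone gave 8, 4, 1, 1 and 1. Series 6 alone gave 3 higher than DBY8268, 1 higher and 2 lower than the mean, and 0 by the F test (7 of 34 members at an unadjusted p under 0.05). At a false discovery rate of 0.05 there were 35 lower than DBY8268, and 13 higher and 10 lower than the mean. Counts lower than the mean were 1 after scaling, 7 with a dye term, 2 after the chromosome offset and 2 without YPS1009. Without M22, RM11a and YJM789, 2 were higher than the mean.

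Residuals of same-numbered arrays correlated with a mean of 0.075, against -0.033 for different numbers (164 of 411 pairs over 0.1, and 32 of 54 arrays closest to their own number), and the labels do not say what a number shares. With the replicate block, 8 in place of 4 pairs were lower than the mean, 48 of the 51 calls were kept, and the F test no longer called HXK1 (adjusted p = 0.01). The mean over strains turned sign for GLK1 (-0.08) at 0.23 with the replicate block, 0.11 with a dye term, 0.49 on series 6, and between -0.21 and 0.0469 with 1 array left out. For ALD4 (-0.21) it was 0.0694 with the replicate block and 0.30 on series 6. For PDC6 (0.19) it was -0.03 on series 5, and -0.0756 without YJM789 and without M22, RM11a and YJM789. No single call changed direction under any alternative run. Kept calls ranged from 51 of 51 with median centring or a dye term, over 45 with slide series and 38 after scaling, to 13 of 49 with own-array errors, 14 of 33 on series 5 and 10 of 51 on series 6. Fewer arrays stand behind the last 3, and the other causes were not tested. Leaving out strains, adding the error of the mean of strains (10 of 10 calls kept) and leaving out both RM11a replicate 3 and YJM789 replicate 2, were chosen after seeing the data.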
